A study of Mus musculus with 5 samples.

Results

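The 7 genes described here, Serpina3n, Il33, Klk6, Apod, Stat3, Cd9 and Cd63, have been used as markers of oligodendrocytes in diseased or injured brain. They were taken by symbol, and each was present once among the 32285 gene rows of every matrix. Their levels were read in nuclei of oligodendrocytes, the myelin-forming cells, and beside them in oligodendrocyte precursors, astrocytes, microglia and neurons. The material was mouse hippocampus, profiled as nuclei by a combined RNA and chromatin accessibility assay, with 1 library for each of 5 genotypes. These were Wild type, 5xFAD mice, 5xFAD_astrocyte specific MAGL-KO, 5xFAD_neuron specific MAGL-KO and 5xFAD_global MAGL-KO. The 5xFAD mouse is a transgenic amyloid model, and all 4 libraries other than Wild type carry its transgenes. MAGL is monoacylglycerol lipase, the product of Mgll, which breaks down the endocannabinoid 2-arachidonoylglycerol. Age, the driver used for each cell-specific knockout and the number of animals pooled are not given in the sources used here. All 5 libraries contained nuclei with Xist UMIs and others with UMIs of Y-linked genes, which shows that each pooled animals of both sexes.

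Myelinating oligodendrocytes take on an altered state near amyloid and in demyelinated or injured tissue, with higher expression of secreted, complement and antigen presentation genes. Serpina3n encodes a secreted serine protease inhibitor, Klk6 a secreted kallikrein protease, Il33 a nuclear alarmin cytokine of the interleukin-1 family, and Apod a secreted lipocalin that binds lipids. Stat3 is the transcription factor downstream of interleukin-6 family receptors, and Cd9 and Cd63 are tetraspanins of the plasma membrane and of late endosomes and exosomes.

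The libraries held between 4050 and 7498 nuclei, of which 309, 303, 306, 262 and 214 were oligodendrocyte-like in the order Wild type, 5xFAD, astrocyte, neuron and global MAGL-KO; sets of 5 values below keep this order. All 12 oligodendrocyte markers had UMIs in every library, and Mog, a myelin surface protein, stood at 999 counts per 1000000 UMIs (CPM) in the class summed over libraries, against 24.2 in precursors and 0.747 in excitatory neurons. The summed counts of the class ranged from 545479 to 977685 UMIs, and its median depth per nucleus from 2154 to 2988. Libraries shared between 29 and 63 barcodes in each pair, at most 1.16% of the smaller library. The targeted gene did not follow the labels. Mgll stood at 493, 346, 483, 401 and 413 CPM in astrocytes and at 70.5, 74.8, 93.7, 95.5 and 82.8 CPM in excitatory neurons, so the 3 knockouts are named by their label only, as the astrocyte-, neuron- and global-labelled libraries; UMIs from outside a deleted part would not show a deletion. Each genotype is 1 library with no replicate, so no test between genotypes was possible. Intervals in brackets are 95% intervals of counting error only and do not hold the spread between animals.

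The 250 bases before the start of Serpina3n, of both RefSeq starts of Il33 and of Apod are shown because accessibility at these starts is described below. They are from RefSeq on GRCm38.p6, read 5′ to 3′ on the strand of the gene. Capitals mark matches to TATAAA, the core of a TATA box, or to ACAAAG, a core bound by SOX factors; neither these nor TTCNNNGAA, the STAT palindrome, is present in the Serpina3n stretch.
Serpina3n, plus strand, chr12:104406458-104406707: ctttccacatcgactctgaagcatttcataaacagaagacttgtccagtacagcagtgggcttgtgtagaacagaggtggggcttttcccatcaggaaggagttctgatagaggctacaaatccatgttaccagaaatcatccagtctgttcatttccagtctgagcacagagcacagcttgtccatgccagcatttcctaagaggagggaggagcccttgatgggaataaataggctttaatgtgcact
Il33 upstream start, plus strand, chr19:29924863-29925112: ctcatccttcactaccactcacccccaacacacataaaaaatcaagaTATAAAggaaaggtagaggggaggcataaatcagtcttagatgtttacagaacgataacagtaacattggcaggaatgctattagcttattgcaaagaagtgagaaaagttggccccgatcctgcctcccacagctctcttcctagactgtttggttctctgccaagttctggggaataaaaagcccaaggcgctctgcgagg
Il33 downstream start, plus strand, chr19:29945540-29945789: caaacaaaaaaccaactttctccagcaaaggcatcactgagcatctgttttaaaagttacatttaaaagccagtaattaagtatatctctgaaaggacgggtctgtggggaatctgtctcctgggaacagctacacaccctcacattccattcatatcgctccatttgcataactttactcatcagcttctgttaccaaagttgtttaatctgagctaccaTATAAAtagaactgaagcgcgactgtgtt
Apod, minus strand, chr16:31314809-31315058: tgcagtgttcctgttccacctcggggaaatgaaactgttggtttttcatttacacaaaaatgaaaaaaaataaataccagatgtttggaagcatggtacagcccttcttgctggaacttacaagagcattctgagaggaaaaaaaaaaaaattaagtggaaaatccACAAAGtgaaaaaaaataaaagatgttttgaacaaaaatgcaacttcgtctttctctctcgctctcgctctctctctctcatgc
The downstream start of Il33 had TATAAA 29 bases before it, the upstream start had it 203 bases before, and Apod had ACAAAG 84 bases before its start. ACAAAG was also present once before the first start of Klk6, before Stat3 and, on the opposite strand, before Cd63. TTCNNNGAA was in none of the 9 stretches of the 7 genes. Over 32851 RefSeq promoters the same 250 bases held TTCNNNGAA in 7.02%, ACAAAG in 16.5% and TATAAA in 12.4%, counting both strands and any overlap.

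In oligodendrocytes Stat3 was 3.06-fold higher in 5xFAD than in Wild type and lay between 113 and 119 CPM in the other transgenic libraries. Klk6 was higher than in 5xFAD in all 3 libraries labelled MAGL-KO, and Serpina3n in the neuron- and global-labelled ones. Without the Enpp6-high cluster described below, Klk6 fell under 20 UMIs in each comparison and was not tested. Its few UMIs outside that cluster were still more in the 3 libraries labelled MAGL-KO than in 5xFAD. In nuclei with Y-linked UMIs its log2 ratio in the astrocyte-labelled library was 0.29, on 3 against 5 UMIs. Apod was at least 1.5-fold higher in the neuron-labelled library, a call that ended, at 0.49 in log2 ratio, without the same cluster. Il33, Cd9 and Cd63 passed 1.5-fold in none of the 4 comparisons over all nuclei of the class.

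Serpina3n (ENSMUSG00000021091, chr12:104406729-104414329, plus strand) had 0, 10, 9, 38 and 17 UMIs in oligodendrocytes, or 0, 10.2, 12.1, 43.8 and 31.2 CPM. A UMI was in 0 of 309 Wild type nuclei and in 2.64% [1.15, 5.14], 2.61% [1.13, 5.09], 9.54% [6.27, 13.8] and 6.08% [3.27, 10.2] of nuclei in the transgenic libraries. The 0 allows a Wild type share of up to 0.971% by a floor of 3 counts and of 1.19% by the Clopper-Pearson limit, which the first 2 of these intervals reach. Wild type was the only library without the transcript in this class. Against the same floor in the Wild type library, 5xFAD stood 2.87-fold higher, on 10 UMIs. This ratio leaves out counting error, so it is not a lower limit, and the gene was under the 20 UMIs needed to be tested. The log2 ratio to 5xFAD was 2.10 [1.07, 3.27] in the neuron-labelled library and 1.61 [0.40, 2.90] in the global-labelled library. The astrocyte-labelled library had 9 UMIs against 10. Excitatory neurons held 1.73, 1.94, 2.96, 2.70 and 2.81 CPM, with a UMI in 3.87% to 6.06% of nuclei at median depths of 13830 to 17820. Thinned to 1000 UMIs a nucleus, those shares fell to between 0.0874% and 0.397%, and the oligodendrocyte shares to 0%, 0.667%, 0.656%, 3.45% and 2.84%. At that depth a difference between Wild type, where 0 allows up to 1.19%, and 5xFAD or the astrocyte-labelled library was not detectable. Serpina3n has near-identical neighbours in a tandem family, and reads shared with them may have been lost or split; none of the 9 paralogs measured reached 20 UMIs in oligodendrocytes in any of the 4 comparisons, while in excitatory neurons Serpina3g did in the 3 comparisons with 5xFAD.

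Klk6 (ENSMUSG00000050063, chr7:43824499-43832030, plus strand) stood at 8.32, 12.3, 32.2, 61.0 and 34.8 CPM in oligodendrocytes, on 7, 12, 24, 53 and 19 UMIs. The 2 libraries without a MAGL-KO label were the lowest. Log2 ratios to 5xFAD were 1.39 [0.34, 2.53], 2.31 [1.39, 3.35] and 1.5 [0.39, 2.68] in the astrocyte-, neuron- and global-labelled libraries. Nuclei with a UMI made up 2.27%, 3.63%, 5.23%, 12.2% and 7.48% of the class, or 0.326%, 0.667%, 2.62%, 6.13% and 3.32% after thinning. Excitatory neurons, far deeper, had a Klk6 UMI in at most 0.193% of nuclei.

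Il33 (ENSMUSG00000024810, chr19:29925114-29960718, plus strand) stood at 302 [266, 341], 362 [325, 402], 437 [390, 487], 420 [378, 466] and 477 [421, 538] CPM. Wild type was the lowest library, and its interval did not reach the value of any transgenic library, though it overlapped the 5xFAD interval. The log2 ratio of 5xFAD to Wild type was 0.26 [0.03, 0.50], but -0.105 with the class taken from the highest marker score of each nucleus. The ratios to 5xFAD were 0.27 [0.05, 0.49], 0.22 and 0.40 [0.16, 0.63], below the 1.5-fold mark of 0.585. With the class from marker scores, those of the astrocyte- and neuron-labelled libraries passed that mark. Between 45.3% and 53.4% of oligodendrocyte nuclei had an Il33 UMI, while 0 of the 399 microglial nuclei did; the floor of 3 counts allows 11.8 to 31.5 CPM there in single libraries.

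Apod (ENSMUSG00000022548, chr16:31296192-31314808, minus strand) stood at 876 [814, 941], 908 [850, 970], 1303 [1222, 1388], 1492 [1412, 1576] and 1054 [970, 1144] CPM. Wild type and 5xFAD overlapped, with a log2 ratio of 0.05 [-0.09, 0.20]. The astrocyte- and neuron-labelled libraries lay above both, with log2 ratios to 5xFAD of 0.52 [0.39, 0.65] and 0.72 [0.59, 0.84]. The global-labelled library was at 0.21. Between 78.6% and 90.5% of nuclei had an Apod UMI, against 2.91% to 8.38% of the much deeper excitatory neuron nuclei.

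Stat3 (ENSMUSG00000004040, chr11:100885098-100939540, minus strand) stood at 45.2 [32.0, 62.0], 138 [116, 163], 113 [90.0, 140], 114 [92.7, 139] and 119 [92.0, 152] CPM. The Wild type interval lay below those of the 4 transgenic libraries, which overlapped one another. The log2 ratio of 5xFAD to Wild type was 1.61 [1.08, 2.17], and those to 5xFAD were -0.29, -0.28 and -0.21. Nuclei with a Stat3 UMI made up 10.4%, 24.1%, 20.6%, 26.3% and 24.8%.

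Cd9 (ENSMUSG00000030342, chr6:125460266-125494791, minus strand) stood at 163, 197, 250, 222 and 209 CPM, with log2 ratios of 0.28 [-0.05, 0.60] for 5xFAD to Wild type and of 0.34 [0.04, 0.64], 0.17 and 0.08 to 5xFAD. Cd63 (ENSMUSG00000025351, chr10:128900989-128912822, plus strand) stood at 57.0, 78.8, 77.9, 72.6 and 66.0 CPM, with a log2 ratio of 0.47 [-0.07, 1.02] for 5xFAD to Wild type and of -0.02, -0.12 and -0.26 to 5xFAD. Both tetraspanins were lowest in Wild type, by less than 1.5-fold against 5xFAD.

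**Figure D1:**
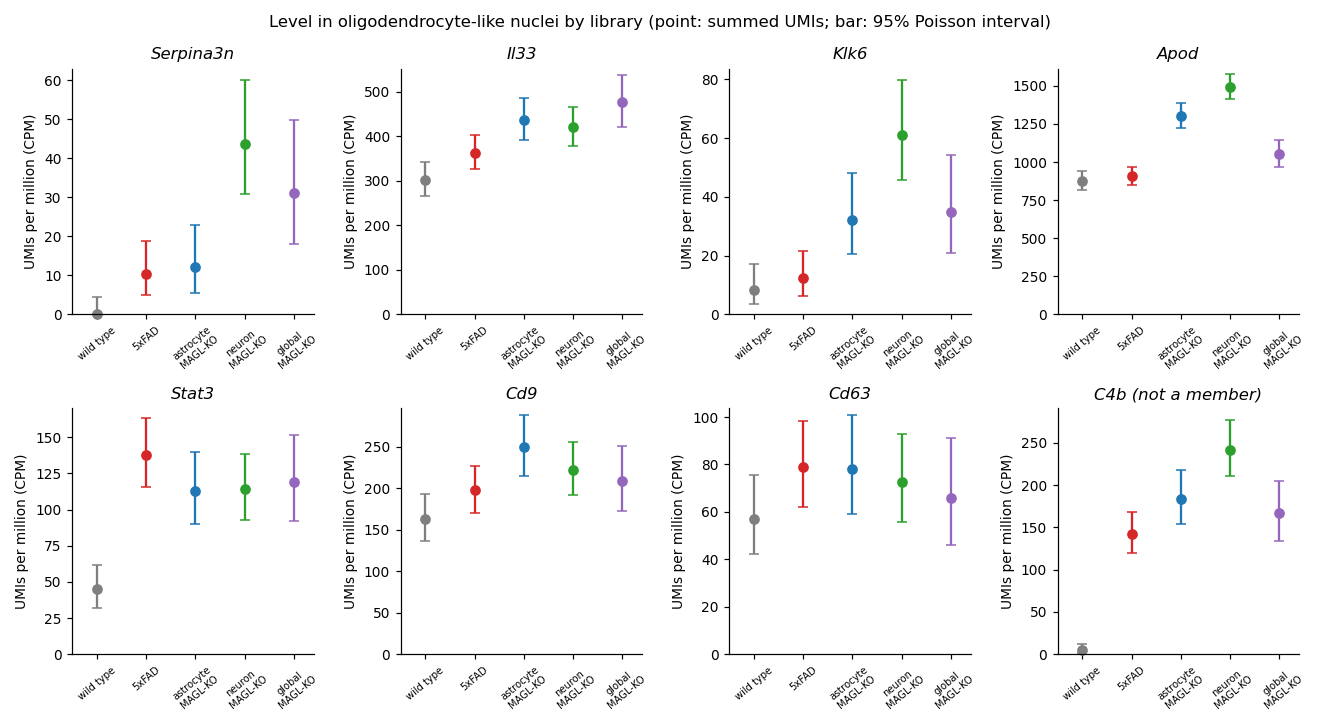
CPM (y axis, from 0) of the 7 genes and of C4b in oligodendrocyte-like nuclei of each library; points are summed UMIs over the class total and bars 95% Poisson intervals. Stat3 is lowest in Wild type at 45.2 CPM, and Klk6 and Serpina3n are highest in the neuron-labelled library at 61.0 and 43.8 CPM.

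Counted over genes with at least 20 UMIs in the 2 libraries, 1 of 5 of these genes was at least 1.5-fold higher in 5xFAD than in Wild type (Stat3), where 7.24% of all 7780 genes tested were. It was 1 of 6 in the astrocyte-labelled library against 5xFAD (Klk6; 14.8% of 7709 genes), 3 of 7 in the neuron-labelled library (Serpina3n, Klk6, Apod; 14.8% of 7954) and 2 of 7 in the global-labelled library (Serpina3n, Klk6; 9.7% of 7198). None was at least 1.5-fold lower in any of the 4 comparisons over all nuclei of the class, where 10.6%, 7.73%, 7.29% and 9.84% of genes were. The median log2 ratio of the tested ones was 0.28, 0.30, 0.22 and 0.21, against -0.03, 0.06, 0.06 and -0.01 over all genes. The last 3 comparisons share the 5xFAD library. Where a gene was under 20 UMIs it left the count: Serpina3n and Klk6 in the first comparison and Serpina3n in the second.

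**Figure D2:**
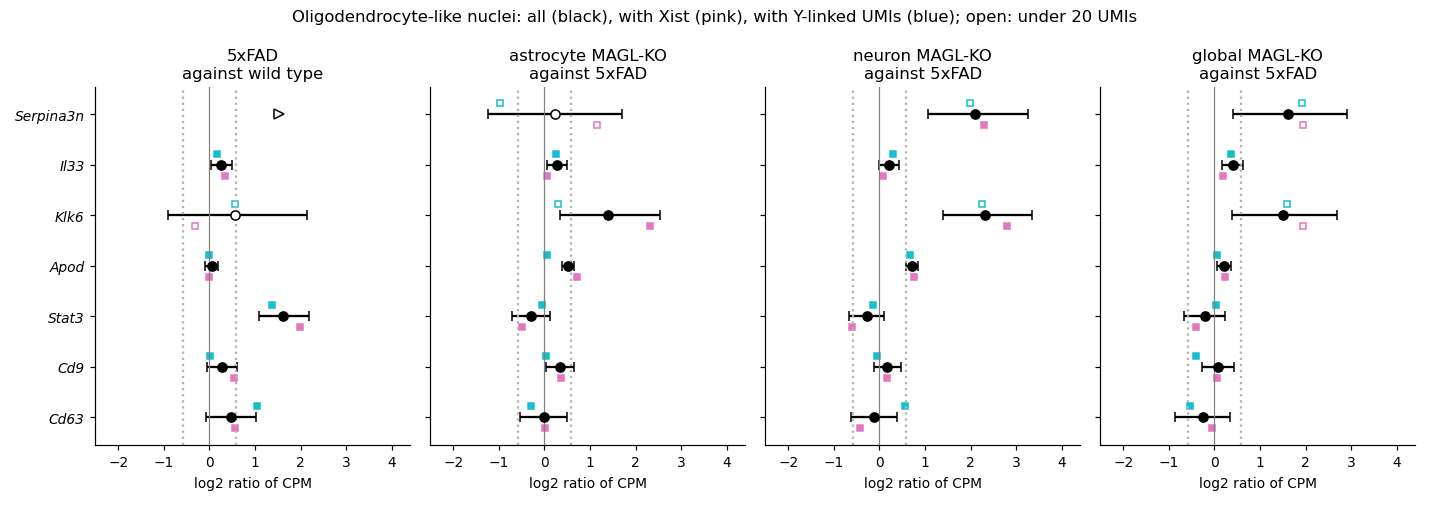
Log2 ratio of CPM (x axis) in oligodendrocyte-like nuclei for the 7 genes in 4 comparisons. Black points with 95% counting intervals are all nuclei, pink squares nuclei with Xist UMIs and blue squares nuclei with Y-linked UMIs. Open symbols are under 20 UMIs, the open triangle is a ratio to the floor of 3 counts, and dotted lines are 1.5-fold. Stat3 is right of the dotted line in 5xFAD against Wild type at 1.61, and Klk6 in each comparison with 5xFAD.

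The share of oligodendrocyte nuclei with Xist and without Y-linked UMIs differed between libraries, at 145, 117, 148, 196 and 103 nuclei against 90, 131, 77, 33 and 51 with Y-linked UMIs alone. Stat3 was higher in 5xFAD than in Wild type in both kinds, at 1.99 [1.20, 2.85] and 1.37 [0.45, 2.41] in log2 ratio. Stat3 in the neuron-labelled library against 5xFAD passed 1.5-fold lower in nuclei with Xist, at -0.59 [-1.09, -0.09], and was at -0.15 [-1.19, 0.77] in those with Y-linked UMIs. Cd63 in 5xFAD against Wild type was at 0.55 [-0.28, 1.40] in nuclei with Xist and passed 1.5-fold in those with Y-linked UMIs, at 1.04 [-0.01, 2.22] on 35 against 10 UMIs, an interval that holds 0. Cd9 was at 0.53 [0.02, 1.06] and 0.01 [-0.53, 0.57]. Apod in the neuron-labelled library was at 0.76 and 0.68. In the astrocyte-labelled library Apod was at 0.72 in nuclei with Xist and at 0.06 [-0.19, 0.31] in those with Y-linked UMIs. Klk6 there was at 2.31, on 18 against 4 UMIs, and at 0.29, on 3 against 5 UMIs. Klk6 and Serpina3n in the neuron-labelled library kept a positive ratio in both kinds, of 2.81 and 2.28 with Xist, but with Y-linked UMIs these rested on 6 against 5 and 4 against 4 UMIs. The part of sex in these results was not tested further.

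Oligodendrocyte nuclei formed 5 clusters, made without the 7 genes among the variable genes, and the 7 were not spread evenly over them. Klk6 and Apod were highest in a cluster of 212 nuclei with high Enpp6, a choline phosphodiesterase of newly myelinating cells, and low Ptgds, the prostaglandin D synthase of mature ones. Summed over libraries, Klk6 stood at 92.2 CPM there against 20.2 and 13.3 in the 2 largest clusters, and Apod at 1865 against 1265 and 865. Serpina3n, Il33, Cd9 and Cd63 went the other way. Il33 was at 129 CPM in the Enpp6-high cluster and at 606 in the Ptgds-high cluster of 502 nuclei, Cd9 at 80.0 and 314, Cd63 at 21.7 and 104, and Serpina3n at 4.07 and 37.3. Stat3 varied least, from 77.3 to 126 CPM.

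**Figure D3:**
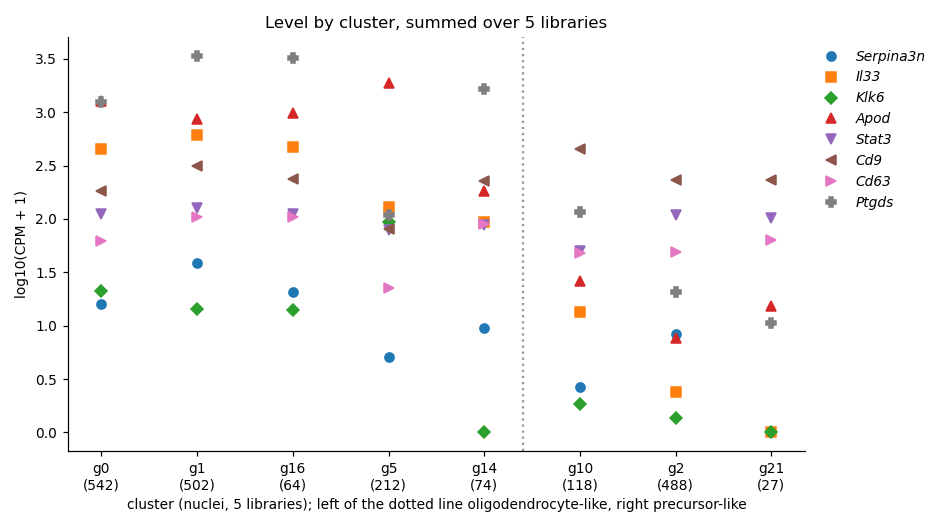
Level as log10(CPM + 1) (y axis) of the 7 genes and Ptgds in 5 oligodendrocyte-like and 3 precursor-like clusters (x axis, with nuclei), summed over the 5 libraries. Klk6 and Apod peak in g5, the Enpp6-high cluster, where Ptgds, Il33, Cd9 and Cd63 are low.

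The Enpp6-high cluster made up 15.9%, 16.2%, 9.15%, 24.8% and 9.81% of oligodendrocyte nuclei. Within it Klk6 stood at 35.7, 63.0, 89.3, 152 and 90.8 CPM, on 6, 11, 7, 38 and 6 UMIs, so it was again highest in the neuron-labelled library. Apod in it was at 1350, 1432, 2499, 2419 and 1468 CPM. Outside it, in the largest cluster, Klk6 was at 3.02, 2.94, 49.8, 24.0 and 30.0 CPM, on 1, 1, 14, 8 and 6 UMIs. The Ptgds-high cluster had 0 Klk6 UMIs in Wild type and in 5xFAD and 3, 6 and 6 in the libraries labelled MAGL-KO. Stat3 was higher in 5xFAD than in Wild type in each of these 3 clusters, at 144 against 54.4, 178 against 47.5 and 97.4 against 23.8 CPM. These levels are given without intervals, and those of Wild type rest on few UMIs. Serpina3n in the Ptgds-high cluster was at 0, 26.4, 11.4, 133 and 42.8 CPM, and that cluster held 24 of its 38 UMIs in the neuron-labelled library. Without the Enpp6-high cluster Klk6 fell under 20 UMIs in all 4 comparisons and left the count. Its UMIs outside that cluster, though few, were more in each library labelled MAGL-KO than in 5xFAD. Apod in the neuron-labelled library against 5xFAD then stood at 0.49 in log2 ratio, under the 1.5-fold mark, and at 0.57 with clusters weighted equally, so its call ended in both.

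Nuclei with a Serpina3n UMI had UMIs of C4b and of Stat3 more often than nuclei without. Over the 5 libraries C4b, a complement component, was present in 81.5% [68.6, 90.8] of the 54 nuclei with Serpina3n and in 20.1% of the other 1340. Within each transgenic library the shares were 75.0%, 100%, 88.0% and 61.5%, against 22.7%, 26.2%, 30.4% and 23.9%. The 54 nuclei are split over these libraries, so each share within a library rests on few nuclei. Stat3 was present in 55.6% of them and in 19.4% of the others, a pooled figure in which Wild type, with the lowest Stat3 share, adds nuclei only to the others. Within each transgenic library the Stat3 shares were 50.0%, 50.0%, 60.0% and 53.8%, against 23.4%, 19.8%, 22.8% and 22.9%. After thinning they were 26.3% [9.15, 51.2], 5 of 19 nuclei, and 8.13%. The median depths of nuclei with and without Serpina3n were 2888 and 2524 UMIs, and after thinning the C4b shares were 68.4% [43.4, 87.4] and 11.9%. Klk6 showed another pattern. The 82 nuclei with Klk6 held Ptgds in 32.9% [22.9, 44.2] against 74.0% of the other 1312, and the share was lower with Klk6 in all 5 libraries. After thinning it was 17.6% against 59.8%. Il33 was in 36.6% of nuclei with Klk6 and 51.3% without, but in 32.4% and 28.7% after thinning. With all UMIs, nuclei with UMIs of at least 2 of the 7 genes made up 61.5%, 77.2%, 74.2%, 79.8% and 72.0% of the class. After thinning they made up 24.4%, 32.3%, 42.0%, 43.7% and 45.5%. The astrocyte- and global-labelled libraries thus lay below 5xFAD with all UMIs and above it after thinning. Apod and Il33 were the most often detected of the 7, and the same share for other sets of genes was not taken.

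**Figure D4:**
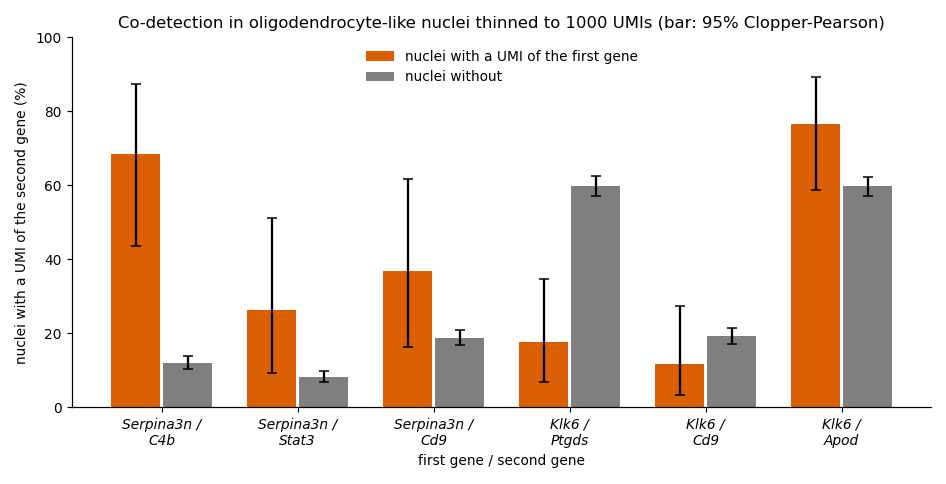
Share of oligodendrocyte-like nuclei, thinned to 1000 UMIs each and pooled over 5 libraries, with a UMI of a second gene (y axis, %) among nuclei with (orange) or without (grey) a UMI of a first gene; bars are 95% Clopper-Pearson intervals. C4b is in 68.4% of nuclei with Serpina3n against 11.9%, and Ptgds in 17.6% of nuclei with Klk6 against 59.8%.

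Across cell classes, Apod, Il33 and Klk6 were highest in oligodendrocytes in every library. Summed over libraries, Il33 stood at 392 CPM in oligodendrocytes, 52.8 in astrocytes and 4.46 in precursors, and Klk6 at 28.9 against at most 0.943 in any other of the 6 classes. Apod was at 1123, with 59.4 in astrocytes, 18.3 in microglia and 12.2 in precursors. Serpina3n was at 18.6 CPM in oligodendrocytes and 5.40 in precursors; with 5 UMIs in all in astrocytes, no order between astrocytes and precursors can be read. In Wild type, where oligodendrocytes had 0 Serpina3n UMIs, precursors had 4.

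The other 3 genes were not highest in oligodendrocytes. Cd9 was at 630 CPM in microglia, 293 in precursors and 207 in oligodendrocytes. Cd63 was at 188 CPM in microglia, 140 in astrocytes and 70.9 in oligodendrocytes. The microglial ranges over libraries overlapped those of precursors for Cd9 and of astrocytes, oligodendrocytes and precursors for Cd63. Stat3 was at 184 CPM in microglia and at 106, 106 and 90.7 in oligodendrocytes, astrocytes and precursors. The microglial range over libraries, 116 to 213 CPM, overlapped those of the other three, which overlapped one another. In microglia Cd9 was at 263, 706, 725, 782 and 489 CPM and Cd63 at 63.1, 217, 201, 192 and 198, with Wild type lowest for both and log2 ratios of 5xFAD to Wild type of 1.43 [0.81, 2.10] and 1.78 [0.55, 3.30]. The larger microglial cluster held 1 Wild type and 51 5xFAD nuclei, and the other held 42 and 34. These ratios therefore compare unlike mixtures of clusters, and ratios within a cluster were not taken. Among precursors Cd9 was at 184, 255, 379, 364 and 269 CPM, with a log2 ratio of 0.48 [0.18, 0.78] for 5xFAD to Wild type. Stat3 in precursors was at 69.0 and 87.1 CPM in Wild type and 5xFAD, a log2 ratio of 0.34 [-0.17, 0.85]. In astrocytes it was at 90.8 and 125, a ratio of 0.46 [-0.33, 1.26]. Microglial Stat3 was lowest in Wild type, at 116 CPM, against a median of 192 over the 5 libraries. Whether the oligodendrocyte ratio differs from those of other classes was not tested.

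**Figure D5:**
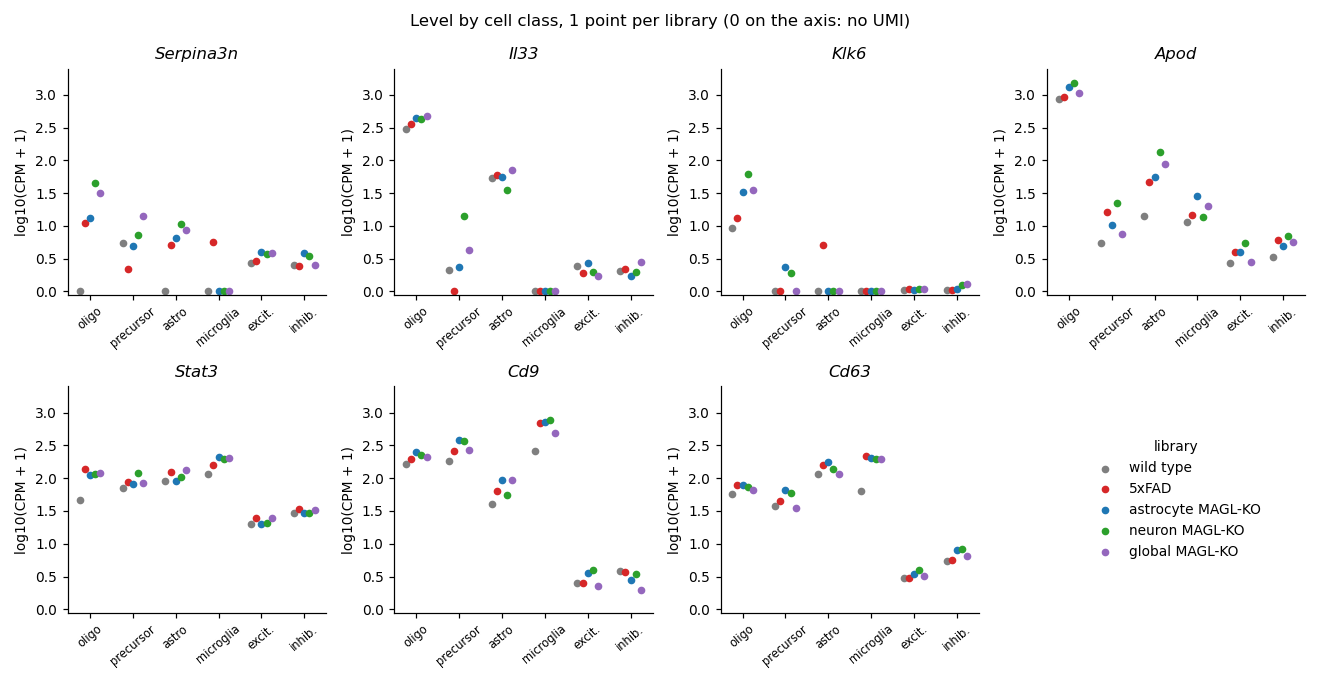
Level as log10(CPM + 1) (y axis) of the 7 genes in 6 cell classes (x axis), 1 point per library. Il33, Klk6 and Apod are highest in oligodendrocytes in each library, and Cd9 in microglia.

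UMIs of other classes' markers were present in the oligodendrocyte class, beside 23470 to 27640 CPM of its own 12 markers. The 9 excitatory neuron markers summed to between 293 and 398 CPM, most of it Prox1, a transcription factor gene that stood at 242 CPM over the 5 libraries in oligodendrocytes and at 79.6 in excitatory neurons themselves. The 10 inhibitory neuron markers summed to between 93.5 and 172. Its 10 microglial markers summed to between 45.2 and 69.9 CPM, with 5 to 8 of them holding UMIs, and 9.39%, 12.5%, 14.1%, 14.1% and 15.0% of nuclei had at least 1 such UMI. The 11 astrocyte markers summed to between 132 and 199 CPM, most of it the glutamate transporter gene Slc1a3 at 152 over the 5 libraries, the precursor markers to between 67.7 and 145, and the 6 markers of border macrophages and T cells to at most 1.34. Csf1r was at 0 in Wild type and 5xFAD and Aqp4 at 0 in all 4 transgenic libraries. Leaving out nuclei with a microglial marker UMI was among the alternatives of the closing section. Across all of those alternatives Stat3 in 5xFAD against Wild type ran from 1.26 to 1.99 in log2 ratio. The part of the other markers in the results was not tested.

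The lists of related genes were counted the same way, in oligodendrocytes, and their counts stand beside the shares of all genes given above. Of 10 other genes of the altered state, 7 could be tested, and 6 were at least 1.5-fold higher in 5xFAD than in Wild type, with a median log2 ratio of 1.30, where 7.24% of all genes were higher. C4b stood at 4.75, 142, 184, 242 and 167 CPM; its log2 ratio to Wild type was 4.90 [3.51, 6.80]. B2m, the light chain of class I antigen-presenting molecules, was at 2.43 [0.89, 4.41] and H2-K1, a heavy chain, at 1.37 [-0.16, 3.18], an interval that holds 0. Against 5xFAD, 4 were higher in the astrocyte-labelled library (Sgk1, H2-D1, B2m, Ctsb), where 14.8% of all genes were. Another 4 were higher in the neuron-labelled library (H2-D1, B2m, H2-K1, C4b; 14.8% of all genes) and 1 lower, the kinase gene Sgk1 (7.29%). In the global-labelled library 2 were higher (Sgk1, H2-D1; 9.7% of all genes) and 2 lower, H2-K1 among them (9.84%). H2-D1 had log2 ratios to 5xFAD of 1.36, 2.26 and 0.77.

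Of 15 receptors, kinases and regulators of JAK-STAT signalling, through which Stat3 is activated, 10 were tested in each comparison. In 5xFAD against Wild type 2 were higher and none lower, where 7.24% of all genes were higher and 10.6% lower. Pias3, an inhibitor of STAT3, was higher at 1.95 [0.35, 3.98]. Against 5xFAD, Tyk2 was higher and Pias3 and Jak1 lower in the astrocyte-labelled library, none passed 1.5-fold in the neuron-labelled one, and 3 were lower in the global-labelled one, Pias3 and Stat2 among them. In the same order 14.8%, 14.8% and 9.7% of all genes were higher and 7.73%, 7.29% and 9.84% lower; with 10 genes tested, counts of up to 3 are not read as a result about the list. Of 8 genes of the interleukin-33 receptor and its signalling, 4 to 6 were tested, and the only ones past 1.5-fold were Irak4 and Nfkb1, higher, and Traf6, lower, in the neuron-labelled library. Of the other tetraspanins, 8 of 11 were tested: Tspan13 was lower in 5xFAD than in Wild type and Cd81 higher in the astrocyte-labelled library, at 0.77 [0.57, 0.97]. None of the 7 other kallikreins and protease-activated receptors reached 20 UMIs. Of 6 lipocalins, apolipoproteins and partners, only Clu, which encodes the secreted chaperone clusterin, passed: it was lower in 5xFAD than in Wild type at -1.22 [-2.77, 0.19] and higher in the neuron-labelled library at 1.61 [0.30, 3.11], on 14, 7 and 19 UMIs. Of 10 myelin genes, all tested, only Mobp passed 1.5-fold, in the astrocyte-labelled library at 0.63 [0.51, 0.74]. None of the genes tested among 6 that mark mature subtypes and 5 of committed precursors passed it.

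Transposase cut sites in peaks within 1000 bases of the starts gave a second readout in the same nuclei. Peaks were listed separately in each library, so covered lengths differ. The start of Serpina3n had a peak of 808 to 855 bases in every library, with 10, 26, 16, 24 and 20 cut sites in oligodendrocytes, or 4.5, 14, 10.6, 12.1 and 19.8 per 1000000 cut sites of the class (CPM). Wild type was the lowest, as for the transcript, and the log2 ratio of 5xFAD to Wild type was 1.64 [0.54, 2.85]. Ratios to 5xFAD were -0.40 [-1.40, 0.55], -0.20 [-1.07, 0.65] and 0.50 [-0.42, 1.40] in the astrocyte-, neuron- and global-labelled libraries. The transcript stood at 2.10 and 1.61 in the neuron- and global-labelled ones. Excitatory neurons, with 1.73 to 2.96 CPM of the transcript, were at 11.6 to 13.5 cut-site CPM. The upstream start of Il33 carried 16.3 cut-site CPM in oligodendrocytes over the 5 libraries and the downstream start 1.75, while in excitatory neurons they carried 4.28 and 5.68. The upstream start in oligodendrocytes was at 21.1, 9.69, 23.9, 10.6 and 17.8 CPM, and lower in 5xFAD than in Wild type at -1.13 [-2.0, -0.31]. The Il33 transcript was at 0.26, of opposite sign, but at -0.105 with the class taken from the highest marker score of each nucleus. The start of Stat3 was at 161, 164, 152, 152 and 122 CPM, with a log2 ratio of 0.03 [-0.20, 0.25] for 5xFAD to Wild type, beside 1.61 for its transcript. Cd63 was at 54.4, 89.9, 78.9, 92.1 and 67.4 CPM, with a ratio of 0.72 [0.38, 1.07] for 5xFAD to Wild type, and Cd9 at 41.4, 24.8, 40.5, 33.4 and 29.7, with -0.74 [-1.28, -0.21]. Their transcripts were at 0.47 and 0.28, both with intervals that hold 0, so no direction of the transcript was read for Cd9 or Cd63. Klk6 had no listed peak at either start in any library. Apod had a peak over its start in Wild type, 5xFAD and the neuron-labelled library, none in the astrocyte-labelled library and, in the global-labelled library, only one 198 bases away. Its 46.8, 49.5, 0, 54.1 and 12.9 CPM follow whether a peak was listed, so no difference was read.

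Over 30 points, 6 classes in 5 libraries, the genes whose log2(CPM + 5) was most like that of each were as follows, as a description of classes that share libraries. Serpina3n was most like Pim3 and Msrb1, both at a Pearson r of 0.74. Il33 was most like Car2 and Olfml1, both at 0.98. Klk6 was most like Gm44866 at 0.96 and Galnt5 at 0.95, and Apod like Prr5l at 0.97 and Gm19500 at 0.96. Stat3 was most like Abca1 at 0.96 and Cd63 at 0.95. Cd9 was most like Pld1 at 0.99 and Chd7 at 0.98, and Cd63 like Apoe and Cd81, both at 0.97.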

How the data were processed

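RNA and chromatin accessibility were measured in nuclei of 5 hippocampus libraries, 1 per genotype. The deposited gene and peak values are raw counts, per the file headers and values: UMIs per gene and cut sites per peak. Per the submitters' processing notes, Cell Ranger ARC 2.0.0, Seurat and mm10 were used; the role of each is not stated there. The deposited features' other columns, peak and gene coordinates, count from 0, and coordinates here count from 1 on GRCm38 (mm10), with gene models of GENCODE vM21.

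A nucleus needed at least 500 genes and no more than 5% mitochondrial UMIs. Doublets were scored with Scrublet in each library, and the highest-scoring 0.8% per 1000 nuclei were removed, leaving 3917 to 7032 nuclei. Clustering used scanpy 1.11.5 and leidenalg 0.10.2 with 2000 variable genes, without the 7 genes, at resolution 1. Clusters were named by mean z score of fixed markers; the z score at which a marker counted as raised, and the exemption of microglia and border macrophages from each other, were set after the clusters were seen and left the oligodendrocyte nuclei unchanged. Between 6.91% and 10.1% of nuclei stayed unnamed. Class names mean oligodendrocyte-like and so on.

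UMIs were summed by class and library and divided by the class total (CPM). Intervals are exact Poisson for levels, Clopper-Pearson for shares and exact conditional for ratios, each at 95%. A gene was tested when it had at least 20 UMIs over 2 libraries and called at 1.5-fold; there is no p-value. A count of 0 was set to the floor of 3 counts to bound a level or share and to give a ratio, while counts of 1 to 3 kept their ratio. Shares were also taken after thinning to 1000 UMIs. The 7 genes are all named; other genes come from the lists, at most the 3 highest and 2 lowest of a list, except Ptgds, Enpp6, Mgll, Prox1 and Slc1a3 and, as the fourth of a count, Ctsb and C4b, which were chosen with values seen. Genes most like each of the 7 were the 2 with the highest correlation among genes with at least 200 UMIs. The 7 genes, the lists and the comparisons were chosen with earlier results of these data known. Some members of the lists are counted but not reported here by name. Scripts were tested on simulated data. Alternatives were other normalization, filters, clustering, doublet handling, nuclei by sex and nuclei without a microglial marker UMI. The closing section gives their effect.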

Additional observations from a re-analysis of the deposited data

Results flagged for a closer look

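Il33 moved in opposite directions in 5xFAD against Wild type in 2 classes, with a log2 ratio of 0.26 in oligodendrocytes and of -0.634 in excitatory neurons. In excitatory neurons Il33 was at 1.46 CPM in Wild type and 0.943 in 5xFAD, on 123 and 71 UMIs, against 302 and 362 CPM in oligodendrocytes. Apod in the global-labelled library against 5xFAD was at 0.21 in oligodendrocytes and at -0.746 in excitatory neurons, where it stood at 1.82 against 3.05 CPM. Both oligodendrocyte ratios turned negative with the class taken from the highest marker score of each nucleus, at -0.105 for Il33 and -0.0753 for Apod. Neither difference between classes was tested, since each group is 1 library.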

How the results depend on the processing

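No paired analysis was possible because no genotype has a second library. Of 407 log2 ratios of single genes under the alternatives, 382 stayed within their counting interval, and none of the genes called turned direction. Changing the filter on low counts cannot move a ratio, so those alternatives stayed within it by construction. Ratios under the UMI minimum of an alternative were left out of the 407, so a turn of direction there was not counted. The alternatives include leaving out nuclei with a microglial marker UMI, which was chosen after seeing the data. The number of the 7 genes at least 1.5-fold higher was 1, 1, 3 and 2 in the order 5xFAD against Wild type, then the astrocyte-, neuron- and global-labelled libraries against 5xFAD, and 50 of 68 recomputed counts stayed within 1.5 times. With the class taken from the highest marker score of each nucleus it was 4 and 5 in the astrocyte- and neuron-labelled libraries, Il33 and Cd9 among them in both, with medians of 0.73 and 0.78, and the median in the global-labelled library was -0.0753. With nuclei thinned to 1000 UMIs it was 2 in 5xFAD, 0 in the astrocyte- and global-labelled libraries, and the median in the neuron-labelled library was 0.60; fewer genes reached 20 UMIs. Without a filter on low counts it was 2 in 5xFAD, and at 50 UMIs it was 0 in the astrocyte- and global-labelled libraries. In nuclei with Xist it was 2 in the astrocyte-labelled library and 0 in the global-labelled library, whose median was 0.0463. Serpina3n and Klk6 in that last library were each at 1.95 [0.20, 4.06], on 11 against 4 UMIs, and left the count for being under 20 UMIs. In nuclei with Y-linked UMIs the number was 2 (Stat3 and Cd63), 0, 1 and 0, with a median of 0.0311 in the last. There Serpina3n was at 1.91 [-0.30, 4.24], on 5 against 4 UMIs, and Klk6 at 1.59 [-0.53, 3.71], on 5 against 5. Both were under 20 UMIs, and both intervals hold 0. The alternatives chosen after seeing the data gave 2 in the astrocyte-labelled library with clusters weighted equally, and 0, 1 and 1 in the 3 libraries labelled MAGL-KO without the Enpp6-high cluster, where Klk6 was under 20 UMIs and Apod in the neuron-labelled library was at 0.49; Apod was at 0.57 with clusters weighted equally. Stat3 in the neuron-labelled library, -0.28 over all nuclei, ran from -0.59 in nuclei with Xist to 0.59 after thinning, past 1.5-fold at both ends. Other causes were not tested. Thinning moved 34 of 35 shares of nuclei, and 38 of 45 promoter values held with peaks within 5000 bases. Depth limits Serpina3n and Klk6 most, with 74 and 115 UMIs in the class over all libraries.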
